A study of Homo sapiens with 6 samples.

Results

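The replication-dependent histone genes were examined in NB4 cells, a human acute promyelocytic leukemia line that carries the PML-RARA fusion, by taking every row of the deposited gene table whose symbol begins with HIST1H, HIST2H, HIST3H or HIST4H. The rule found 39 genes of the 18625 listed, namely 4 for linker histone H1, 7 for H2A, 17 for H2B, 5 for H3 and 6 for H4. It used gene names alone and no measured value, although this group of genes was chosen with earlier results of these data known. Cells had been kept for 3 days with the solvent DMSO alone or with 10 μM of Tanshinone I (Tan I), a lipid-soluble compound of the herb Salvia miltiorrhiza, and 3 libraries were sequenced per group. All 6 libraries came from this 1 cell line, and nothing in the labels says that the replicates were separate cultures, so the p-values below measure only the spread between these libraries, which may be technical. The study asked how Tan I acts on leukemia cells through EZH2, the enzyme of Polycomb repressive complex 2 (PRC2) that methylates histone H3 at lysine 27. Of the 39 genes, 35 encode its substrate H3 or the other histones and 4 are histone pseudogenes, and the comparison asked whether their RNA differed between the groups, by histone type.

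Replication-dependent histone genes supply the histones that wrap newly copied DNA, and their mRNAs accumulate in S phase and are degraded when DNA synthesis stops. H3 and H4 form the tetramer at the core of the nucleosome, H2A and H2B join it as dimers, and H1 binds the linker DNA between nucleosomes. Their mRNAs normally end in a conserved stem-loop instead of a poly(A) tail. The stem-loop is bound by SLBP, and the U7 small nuclear ribonucleoprotein guides the cleavage just after it, while NPAT drives transcription in the histone locus body. Some of these genes can also give polyadenylated mRNAs, mostly in differentiating cells. How the RNA was selected for these libraries, by poly(A) tail or by removal of ribosomal RNA, is not given in the sources used here, and this choice decides how much of a tailless mRNA a library can hold.

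The 3′ stem-loops are shown because they are the feature that sets these mRNAs apart. In GENCODE release 44 transcripts (GRCh38), 37 of the 39 genes held the 16-base pattern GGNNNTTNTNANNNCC past a fixed position. That position was not set by the end of the coding part. In 35 of the 37 genes the pattern lay within the last 60 bases of the transcript. Of 18550 listed genes, 50 (0.270%) had the pattern there in all, 15 of them outside the 39. The pattern was searched on the transcript strand. HIST2H2BA and HIST2H3DP1, both pseudogenes, had no match in the annotated model. Below, the stem-loop is in capitals and its flanks are in lower case, written 5′ to 3′. HIST1H2AC, HIST1H1C and HIST1H4I are the genes that passed the unadjusted test described further on, HIST1H2BC had the highest fold change among the genes tested, and HIST2H2BE and HIST2H2BC (chosen here after their values were seen) had the highest mean levels.
HIST1H2AC: cccaaaGGCTCTTTTCAGAGCCcccc
HIST1H1C: ccaaaaGGCTCTTTTCAGAGCCacca
HIST1H4I: taaaaaGGCCCTTTTTAGGGCCccta
HIST1H2BC: cccaaaGGCTCTTTTAAGAGCCaccc
HIST2H2BE: tccaaaGGCTCTTTTCAGAGCCaccc
HIST2H2BC: tccaaaGGCTCTTTTCAGGGCCattt
The sites lay, in this order, at chr6:26124663-26124688 on the plus strand, chr6:26055740-26055765 on the minus strand, chr6:27139648-27139673 on the plus strand, chr6:26123468-26123493 on the minus strand, chr1:149886184-149886209 on the minus strand and chr1:149850298-149850323 on the minus strand.

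The 37 genes used 6 stem-loop sequences. The form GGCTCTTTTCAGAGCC was found in 21 genes of the types H1, H2A, H2B and H3, including HIST1H2AC, HIST1H1C and HIST2H2BE. The form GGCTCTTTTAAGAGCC was found in 6, of which 5 were H2B genes and the other was HIST1H3G. The form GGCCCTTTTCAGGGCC was found in 5, all of them H4 genes. HIST1H4I, the remaining H4 gene, was alone with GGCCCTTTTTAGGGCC. The form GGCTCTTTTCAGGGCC, was found in HIST1H2AG and in the pseudogenes HIST2H2BC and HIST2H2BD. HIST2H2AC was alone with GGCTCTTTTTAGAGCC.

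All 39 genes had a single-exon canonical transcript, against 15.4% of the listed genes, and the median transcript length was 486 bases against 2446 for the listed genes. On GRCh38, 32 lay in the major cluster on chromosome 6, between positions 26026896 and 27893891, and 7 lay on chromosome 1. Release 44 annotates 35 as protein-coding and 4 as pseudogenes, which are HIST2H2BC, HIST2H2BD, HIST2H2BA and HIST2H3DP1. For 10 of the 39 genes, at least 1 annotated transcript ended in a poly(A) signal. HIST2H2BE (H2BC21 in current nomenclature) was 1 of them, with a transcript that runs 1729 bases past its stem-loop. HIST1H2AC, HIST1H2BC and HIST1H2BJ were also among the 10, whereas HIST1H1C and HIST1H4I were not. Which of its transcripts a gene's reads came from was not tested.

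The promoters of the 3 genes that passed the unadjusted test are shown for the elements known from histone promoters, which are the TATA box, the CCAAT box and the octamer bound by POU2F1. The sequences are from RefSeq on GRCh38.p14, from 250 bases before the start to the first bases of the transcript, with matches on either strand to TATAA and to CCAAT and to the octamer ATTTGCAT in capitals.
HIST1H2AC: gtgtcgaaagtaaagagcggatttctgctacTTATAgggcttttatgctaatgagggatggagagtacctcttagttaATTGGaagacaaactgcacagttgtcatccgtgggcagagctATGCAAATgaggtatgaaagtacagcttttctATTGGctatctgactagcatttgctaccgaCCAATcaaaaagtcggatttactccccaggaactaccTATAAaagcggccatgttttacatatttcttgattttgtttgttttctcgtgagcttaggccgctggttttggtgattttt
HIST1H1C: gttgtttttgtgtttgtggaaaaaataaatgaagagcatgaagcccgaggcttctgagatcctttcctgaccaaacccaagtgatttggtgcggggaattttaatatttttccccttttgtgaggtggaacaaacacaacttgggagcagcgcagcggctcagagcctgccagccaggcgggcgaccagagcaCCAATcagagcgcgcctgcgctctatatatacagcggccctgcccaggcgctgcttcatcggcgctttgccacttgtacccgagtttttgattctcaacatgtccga
HIST1H4I: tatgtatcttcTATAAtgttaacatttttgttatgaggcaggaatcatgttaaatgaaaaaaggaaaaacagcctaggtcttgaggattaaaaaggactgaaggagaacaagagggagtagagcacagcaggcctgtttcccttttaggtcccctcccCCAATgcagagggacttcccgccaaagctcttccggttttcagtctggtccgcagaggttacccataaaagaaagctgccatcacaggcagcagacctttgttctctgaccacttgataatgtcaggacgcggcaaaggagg
These windows are chr6:26123922-26124221 on the plus strand, chr6:26056421-26056720 on the minus strand and chr6:27139032-27139331 on the plus strand. In HIST1H2AC the TATAA match began 31 bases before the start and the octamer 130 bases before it. Its window also reaches the promoter of HIST1H2BC, which is transcribed the other way from a start 246 bases off, and holds the TATAA match of that gene on the opposite strand. The only TATAA match in the HIST1H4I window began 239 bases before the start, and the HIST1H1C window held no TATAA match.

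Promoter windows could be matched for 32 of the 39 genes. Counted anywhere in the window and on either strand, TATAA was present in 31 of the 32, against 20.4% of all 35116 windows in the table. CCAAT was present in 28 of the 32, against 34.6%, and in 1 of the 5 matched H4 genes. The octamer was present in 16 of the 32, against 1.77%. It was found in 5 of 6 H2A and 11 of 14 H2B windows and in no H1, H3 or H4 window. The windows of genes in divergent pairs overlap, so 1 match can count for both partners, and a match describes letters and not a site in use.

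**Figure D1:**
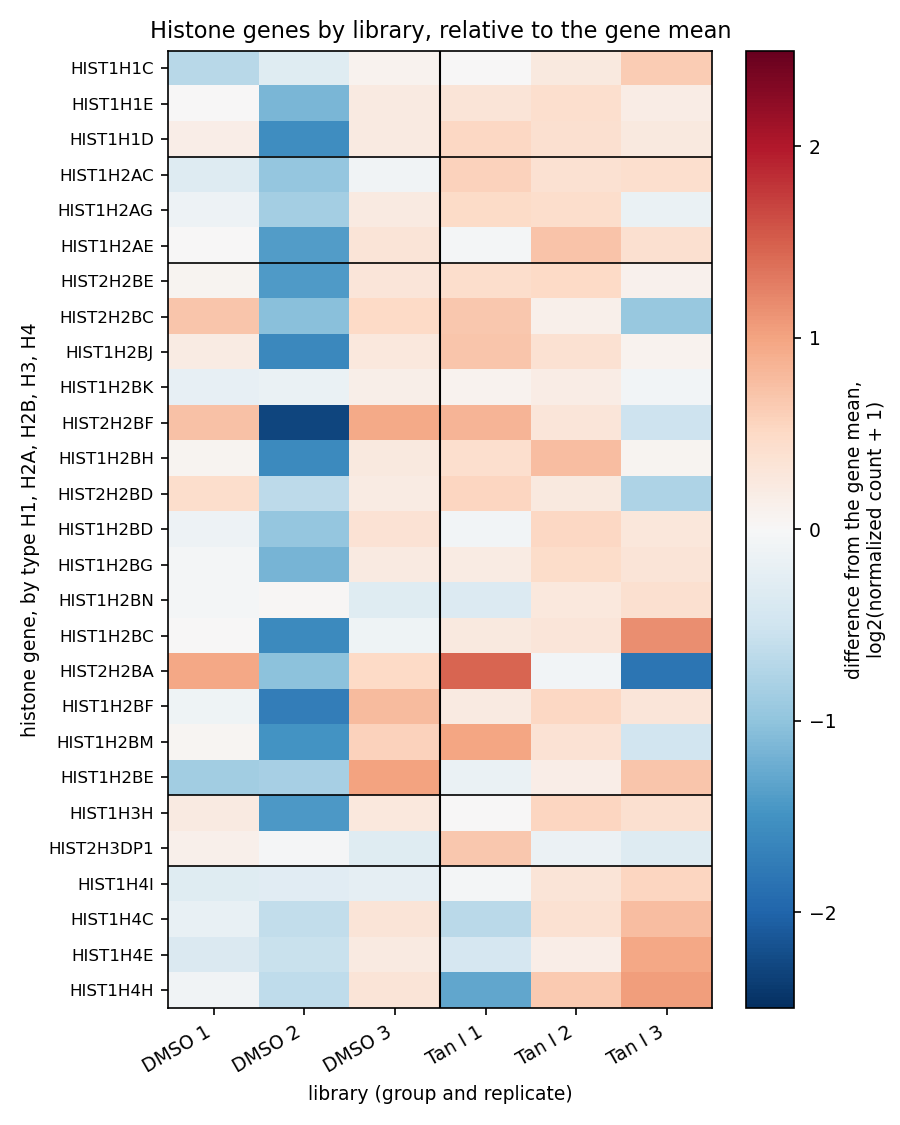
Each row is 1 of the 27 histone genes tested, grouped by histone type, and each column is a library, with DMSO replicates 1 to 3 on the left and Tan I replicates 1 to 3 on the right. Colour gives the log2(normalized count + 1) value minus the mean of that gene over the 6 libraries; the column of DMSO replicate 2 is the lowest for 17 of the 27 genes.

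The libraries held 21502760 to 31679138 reads on listed genes, with size factors from 0.750 to 1.28. The leading principal component over all tested genes carried 70.8% of the variance, and its scores overlapped between the groups. They were -48.0, 41.1 and -26.7 in DMSO replicates 1 to 3, and -46.8, 8.65 and 71.6 in Tan I replicates 1 to 3. Of 8 promyelocyte markers, 7 were analysed, and all 7 were detected in every library. Their summed level ran from 71794 to 78080 normalized counts in DMSO and from 42481 to 50941 in Tan I. Both groups thus expressed the defining genes of the labelled cell type, and MPO, which encodes myeloperoxidase, had the highest level of them. MPO fell by 0.78 and CTSG, which encodes cathepsin G, by 0.69 on the log2 scale in the unadjusted limma test. Of 5 T cell markers, 4 were analysed, with a summed level of 764 to 1215 in DMSO and 1018 to 1790 in Tan I, and TRAC rose by 0.73 on the log2 scale in the same test. None of the B cell (3 of 5 analysed), erythroid (1 of 6) or fibroblast (2 of 5) markers passed it. The part of these differences in the results below was not tested.

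DMSO replicate 2 stood apart for the histone genes. It held 2026 reads on them, whereas the other DMSO libraries held 4819 and 6284 and the Tan I libraries 5526, 4904 and 3064. Across the 27 genes that averaged 10 or more normalized counts, the median deviation from the gene mean was -1.03 on the log2 scale in DMSO replicate 2. In the other 5 libraries it lay between 0.00 and 0.38. DMSO replicate 2 was the lowest library for 17 of the 27 genes and the highest for none. Histone values below that moved when it was left out are therefore given both ways.

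**Figure D2:**
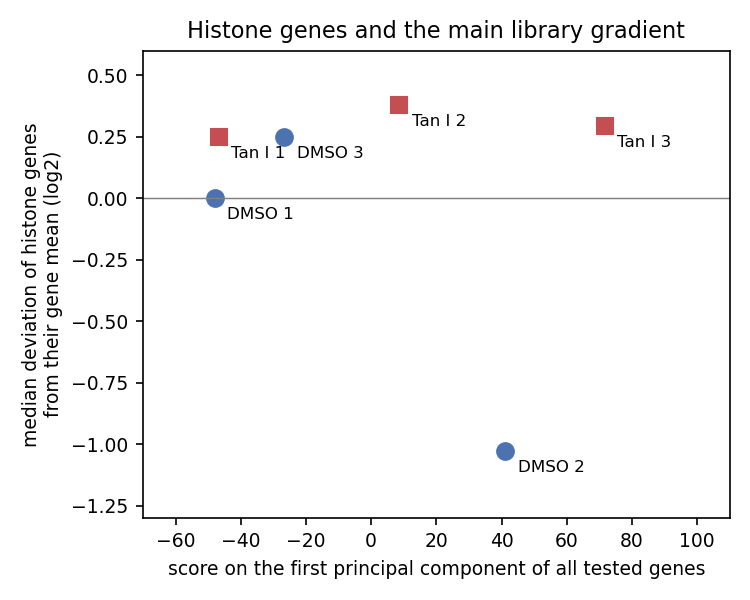
Each point is a library, placed on the x axis by its score on the leading principal component of all tested genes and the median deviation of the 27 histone genes from their gene mean, on the log2 scale, on the y axis. DMSO replicate 2 lies at -1.03 with a score of 41.1, and Tan I replicate 3, with a score of 71.6, lies at 0.29.

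Histone RNA tended to be more abundant in the Tan I libraries, but few genes differed by more than the spread between replicates. Over all 6 libraries, 37 of the 39 genes had a higher mean in Tan I, and the exceptions were HIST2H2BC and HIST2H2BF. Leaving out DMSO replicate 2 made the mean lower in Tan I also for HIST2H2BD, HIST2H2BA, HIST1H2BE, HIST1H2BF, HIST1H1B and HIST1H2AJ. Of the 27 genes tested, 25 had a positive log2 fold change, with a median of 0.54 against -0.0016 over all 16887 genes tested. HIST1H2AC, HIST1H1C and HIST1H4I, encoding H2A, the linker histone H1.2 and H4, rose in the unadjusted limma test and none fell. Without DMSO replicate 2 the median dropped to 0.16 and 22 of 27 were positive. Summed over the 39 genes, the ratio of Tan I to DMSO was 1.29, and 1.04 without that library. In bulk RNA, a larger share of cells in S phase and more histone RNA per cell cannot be told apart.

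A gene was called here at an unadjusted limma p of at most 0.05 when its log2 fold change was also 0.25 or more in either direction, on log2(normalized count + 1). By this rule 3 of the 27 histone genes were called higher, against a background of 1.32% of all genes tested, and 0 were called lower, against 1.1%. After Benjamini-Hochberg adjustment over all genes 0 histone genes passed, against a background of 0%, and their smallest adjusted p in limma was 0.999. The unadjusted count at p of at most 0.05 was again 3. On the recovered reads DESeq2 called 16 genes (0.0947%) after adjustment, none of them a histone gene, and it gave no adjusted p for 13 of the 27. The lowest Tan I library exceeded the highest DMSO library for 4 of the 27 genes, against 3.92% of all genes, and the reverse held for 0, against 3.97%. The 4 were HIST1H1D, HIST1H2AC, HIST1H2BC and HIST1H4I. Without DMSO replicate 2, 1 gene was called higher, HIST1H2AC, against 1.72% of all genes, and 4 genes did not overlap, against 11.7% of all genes.

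**Figure D3:**
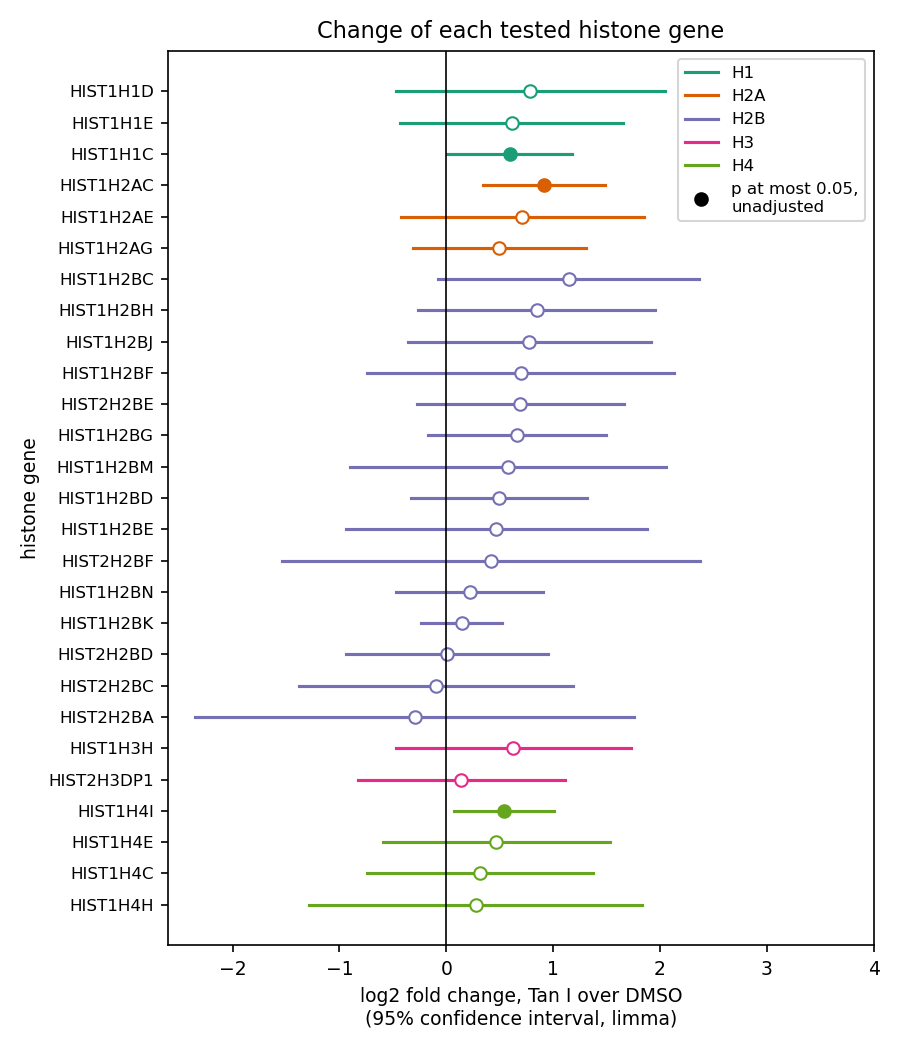
Each point is the log2 fold change of 1 of the 27 histone genes tested, Tan I over DMSO, with its 95% confidence interval from limma, coloured by histone type. Filled points mark the 3 genes called at an unadjusted p of at most 0.05, and 25 of the 27 points lie to the right of 0.

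HIST1H2AC (H2AC6), a core histone H2A gene of the chromosome 6 cluster, showed the clearest difference. Its normalized counts were 133, 84.8 and 158 in DMSO replicates 1 to 3 and 248, 217 and 224 in Tan I replicates 1 to 3. The highest DMSO library thus lay below the lowest Tan I library, and DMSO replicate 2 was again the lowest. The means were 125 ± 37.2 and 230 ± 16.4 (SD, n = 3 each), giving a log2 fold change of 0.91 (SE 0.25, 95% CI 0.34 to 1.49, limma unadjusted p = 0.007, adjusted p = 0.999). It was called in 18 of 18 settings, with log2 fold changes between 0.66 and 1.10. Without DMSO replicate 2 it was 0.66 (limma unadjusted p = 0.008).

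HIST1H1C (H1-2) encodes the linker histone H1.2 and had the highest level among the H1 genes. Its normalized counts were 144, 190 and 249 in DMSO and 236, 276 and 361 in Tan I. The groups overlapped, because DMSO replicate 3 exceeded Tan I replicate 1, and DMSO replicate 2 was not the lowest library here. The log2 fold change was 0.59 (SE 0.25, 95% CI 0.01 to 1.18, limma unadjusted p = 0.047), with means of 194 ± 53.0 and 291 ± 64.2 (SD, n = 3 each). It was called in 12 of 18 settings, and without DMSO replicate 2 the unadjusted limma p was 0.085.

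HIST1H4I (H4C9) encodes H4, the same protein as the other H4 genes, and had the highest level of them. Its normalized counts were 99.8, 100.2 and 104.7 in DMSO and 118, 154 and 179 in Tan I. The 3 DMSO libraries were close together, DMSO replicate 2 included, and all 3 Tan I libraries lay above them. The log2 fold change was 0.54 (SE 0.20, 95% CI 0.07 to 1.01, limma unadjusted p = 0.029), with means of 102 ± 2.74 and 150 ± 30.4 (SD, n = 3 each). It was called in 13 of 18 settings, and without DMSO replicate 2 the unadjusted limma p was 0.059.

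**Figure D4:**
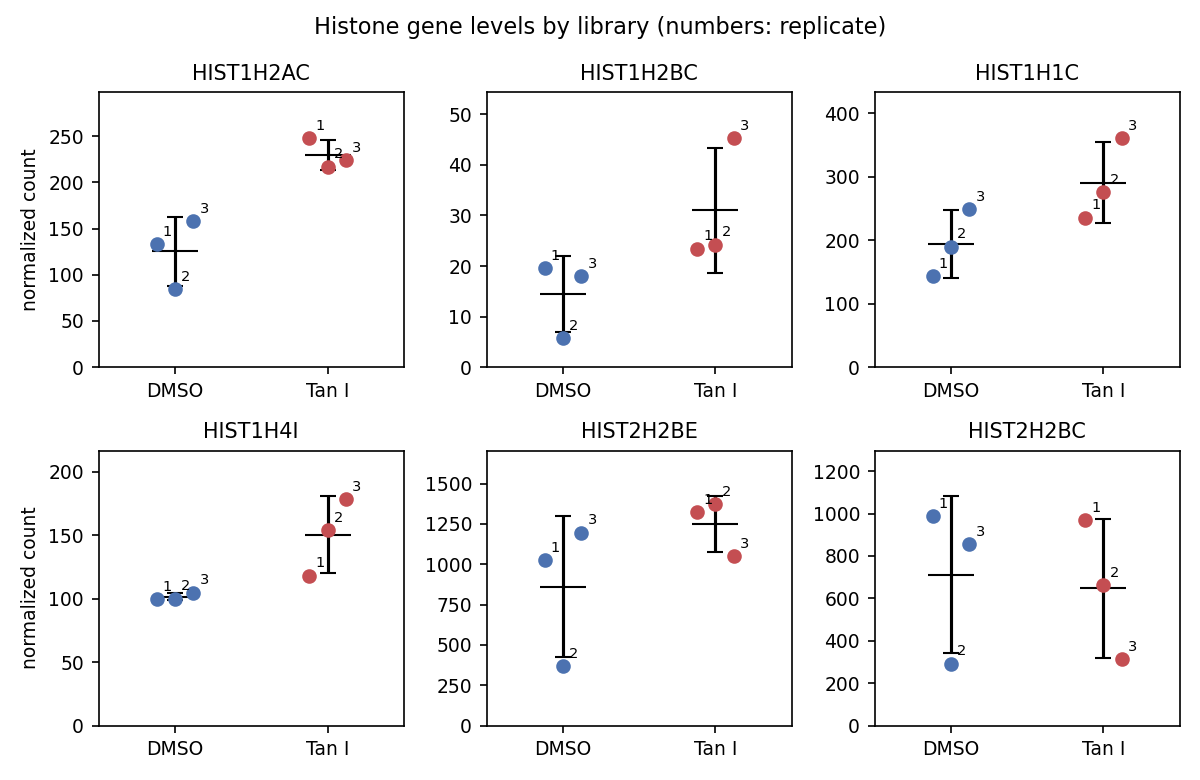
Normalized counts of single histone genes by library, with 1 point per library, numbered by replicate, and the group mean with its SD in black. The Tan I points of HIST1H2AC (217 to 248) and HIST1H4I (118 to 179) lie above all of their DMSO points, and those of HIST1H1C overlap.

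The other H1 genes were expressed at low levels. HIST1H1D (H1-3), which encodes the linker histone H1.3, had normalized counts of 14.9, 3.85 and 15.6 in DMSO and 19.5, 17.9 and 16.003 in Tan I. Its groups did not overlap, yet the interval of its log2 fold change of 0.79 included 0 (limma unadjusted p = 0.184). DMSO replicate 2 rested on 4 reads, and leaving it out gave 0.21. HIST1H1E (H1.4) had a log2 fold change of 0.61 (limma unadjusted p = 0.210), and 0.19 without DMSO replicate 2. HIST1H1B (H1.5) was below the filter, with means of 7.94 in both groups, and without DMSO replicate 2 its mean was higher in DMSO. Summed over the 4 genes, H1 RNA averaged 226 ± 55.9 with DMSO and 334 ± 63.6 with Tan I (SD, n = 3 each), a ratio of 1.48, and the ratio was 1.41 without DMSO replicate 2.

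Among the H2A genes, 3 of 7 passed the filter and all 3 had a positive log2 fold change, with a median of 0.71 that became 0.20 without DMSO replicate 2. Besides HIST1H2AC, HIST1H2AG had normalized counts of 46.6, 27.9 and 60.2 in DMSO and 71.4, 69.6 and 45.3 in Tan I. These overlapped, and its log2 fold change was 0.50 (limma unadjusted p = 0.191). The value for HIST1H2AE was 0.71 (limma unadjusted p = 0.184). Leaving out DMSO replicate 2 brought them to 0.20 and 0.19. The summed H2A level was 242, 144 and 295 in DMSO and 385, 384 and 368 in Tan I, a ratio of 1.67 that became 1.41 without DMSO replicate 2. This was the largest ratio of the 5 types over all libraries, and HIST1H2AC supplied most of the H2A sum.

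H2B genes, pseudogenes included, made up 79.4% of the summed normalized counts of the 39 genes, and the coding H2B genes alone 57.8%. These shares are not corrected for transcript length, which is 2224 bases for HIST2H2BE against a median of 486. None of the 15 H2B genes tested passed the unadjusted test. HIST2H2BE (H2BC21), the gene with the highest mean of the 39, had normalized counts of 1024, 367 and 1195 in DMSO and 1322, 1371 and 1051 in Tan I. Tan I replicates 1 and 2 exceeded every DMSO library, and DMSO replicate 2 lay far below the rest. Its log2 fold change was 0.69 (SE 0.42, limma unadjusted p = 0.136) and 0.16 without DMSO replicate 2.

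HIST1H2BJ (H2BC11), second among the H2B genes per kb of transcript at 730 against 1171 for HIST2H2BC, was likewise lowest in DMSO replicate 2. Its normalized counts were 362, 102 and 379 in DMSO and 510, 412 and 336 in Tan I, with a log2 fold change of 0.77 (SE 0.49, limma unadjusted p = 0.153) that became 0.16 without DMSO replicate 2. HIST1H2BC (H2BC4) had the highest log2 fold change of the 27, 1.14 (SE 0.52, limma unadjusted p = 0.062). Its normalized counts were 19.6, 5.78 and 18.0 in DMSO and 23.5, 24.2 and 45.3 in Tan I, so the groups did not overlap, and Tan I replicate 3 was the highest library. Leaving out DMSO replicate 2 gave 0.63 (limma unadjusted p = 0.164), below the 0.66 of HIST1H2AC. HIST1H2BK and HIST1H2BH, chosen after their values were seen, show how far genes of 1 type differed. HIST1H2BK varied little, from 217 to 281 in DMSO and from 240 to 288 in Tan I, with a log2 fold change of 0.14 (95% CI -0.24 to 0.52), and 0.099 without DMSO replicate 2. HIST1H2BH ranged from 71.3 to 257 in DMSO and from 227 to 371 in Tan I, with a log2 fold change of 0.85 (95% CI -0.26 to 1.96), and 0.27 without that library. The remaining coding H2B genes tested, HIST1H2BF, HIST1H2BG, HIST1H2BM, HIST1H2BD, HIST1H2BE, HIST1H2BN and HIST2H2BF, had log2 fold changes between 0.22 and 0.70. Leaving out DMSO replicate 2 moved this range to -0.63 (HIST2H2BF) to 0.29 (HIST1H2BN), with HIST1H2BF at 0.011 and HIST1H2BM at -0.026.

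In 4 H2B genes on chromosome 1, Tan I replicate 3 was low together with DMSO replicate 2, and they are described together as a choice made after the values were seen. HIST2H2BC (H2BC20P), an H2B pseudogene and the gene with the highest level per kb, had normalized counts of 987, 292 and 856 in DMSO and 968, 661 and 313 in Tan I. DMSO replicate 2 and Tan I replicate 3 were nearly equal, and the log2 fold change was -0.10 (95% CI -1.38 to 1.18, limma unadjusted p = 0.861). HIST2H2BF (H2BC18), a coding gene, had 322, 38.5 and 377 in DMSO and 350, 239 and 135 in Tan I, with a log2 fold change of 0.42 although its mean was lower in Tan I. HIST2H2BD (H2BC19P), a pseudogene, had 299, 139 and 253 in DMSO and 321, 259 and 128 in Tan I, with a log2 fold change of 0.01. HIST2H2BA (H2BP1), a low pseudogene, had 33.6, 7.71 and 24.2 in DMSO and 47.9, 15.8 and 4.001 in Tan I, with the lowest log2 fold change of the 27, -0.30 (95% CI -2.35 to 1.76). The same pair, DMSO replicate 2 and Tan I replicate 3, were the 2 lowest libraries for 7 of the 27 genes. When DMSO replicate 2 was left out, the log2 fold changes of HIST2H2BC, HIST2H2BF, HIST2H2BD and HIST2H2BA were -0.65, -0.63, -0.32 and -0.88, none of which passed the unadjusted limma test. DMSO replicate 2 and Tan I replicate 3 are also the 2 libraries with the highest scores on the leading principal component.

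Reads of HIST2H2BD, HIST2H2BC, HIST2H2BF and HIST2H3DP1 can be shared with similar copies. Of the 100-base stretches in the canonical transcripts, 94.4% in HIST2H2BD, 77.3% in HIST2H2BC and 43.5% in HIST2H2BF also occurred in another histone gene. For HIST2H3DP1 the share was 22.4%. The authors removed reads that mapped to several places, so the values of these genes are uncertain. The same holds for HIST1H2AI (58.8%) and HIST1H2AJ (61.8%), which were below the filter. For HIST2H2BA the share was 98.6%. The noncoding RNA that overlaps it on the same strand is also named H2BP1 and counted as another histone gene. This share therefore does not show that HIST2H2BA has a separate copy. The pseudogenes HIST2H2BC, HIST2H2BD and HIST2H2BA each overlap a long noncoding RNA on the same strand, so their counts can include its reads. HIST2H3DP1 overlaps a long noncoding RNA on the other strand. The span of HIST2H2BF overlaps FCGR1A, and HIST1H4C lies within the span of HIST1H2BC on the other strand. That span of HIST1H2BC also overlaps 2 further coding genes, HFE on the other strand and H1-6 on its own strand. Many of the chromosome 6 genes overlap unnamed gene models. Of the 3 genes called, HIST1H2AC overlaps such a model on its own strand, and HIST1H1C and HIST1H4I overlap none. No strand setting is stated in the sources used here, so reads of such partners cannot be told apart.

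Summed H2B RNA was 3790, 1413 and 4040 in DMSO and 4445, 4078 and 2889 in Tan I. The groups overlapped, the ratio of the means was 1.23, and it was 0.971 without DMSO replicate 2. For the coding H2B genes alone the ratio was 1.37, and 1.08 without that library.

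**Figure D5:**
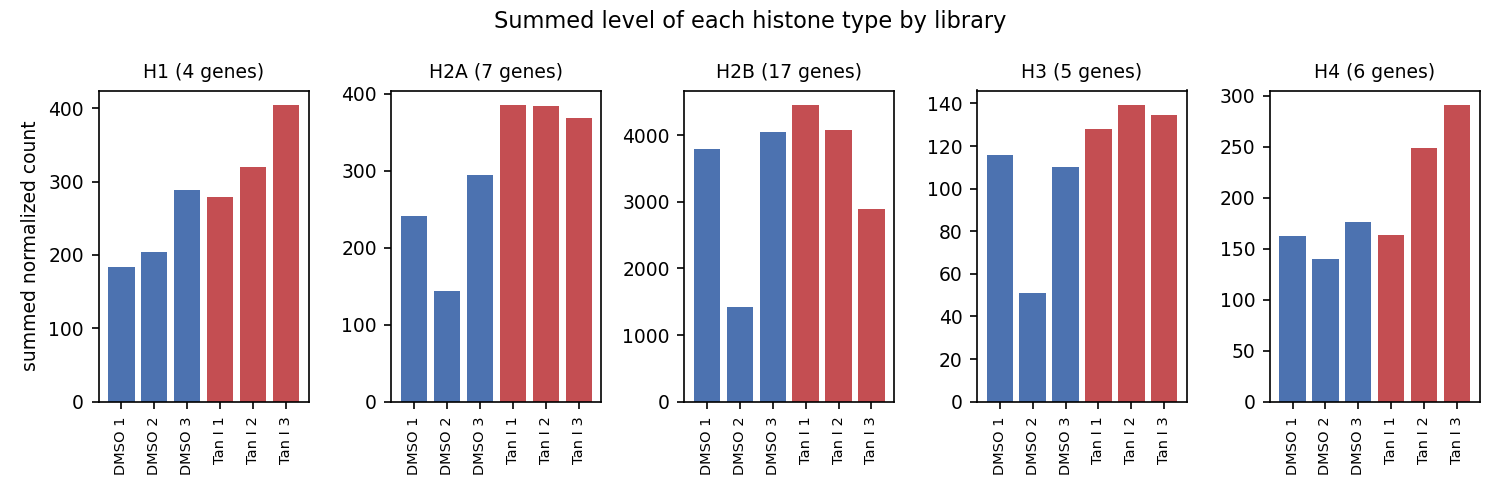
Summed normalized counts of the histone genes of each type, with 1 bar per library (3 DMSO, 3 Tan I) and a y axis from 0 in each panel. The 3 Tan I bars are higher than the 3 DMSO bars for H2A and H3 and overlap with them for H1, H2B and H4.

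Among the H3 genes, which encode the substrate of EZH2, 2 of 5 passed the filter and neither was called. HIST1H3H (H3C10) had normalized counts of 79.3, 24.1 and 81.3 in DMSO and 67.4, 98.0 and 89.4 in Tan I. The groups overlapped, and its log2 fold change was 0.63 (SE 0.47, limma unadjusted p = 0.221), against 0.064 (limma unadjusted p = 0.804) without DMSO replicate 2. HIST2H3DP1 (H3P4), a pseudogene, ranged from 9.38 to 13.1 in DMSO and from 9.34 to 19.5 in Tan I, with a log2 fold change of 0.14. Below the filter, HIST1H3I and HIST1H3F lay higher in all 3 Tan I libraries, at 10.7 to 12.7 against 3.85 to 7.81 and at 10.5 to 15.6 against 4.69 to 7.71. The summed H3 level was 116, 51.0 and 110 in DMSO and 128, 139 and 135 in Tan I, with a ratio of 1.45 that became 1.19 without DMSO replicate 2.

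Among the H4 genes, 4 of 6 passed the filter and all 4 had positive log2 fold changes, with a median of 0.39, or 0.20 without DMSO replicate 2. HIST1H4C (H4C3) had normalized counts of 22.4, 16.4 and 32.0 in DMSO and 15.6, 33.7 and 44.01 in Tan I. Its lowest library was Tan I replicate 1 and its highest Tan I replicate 3, and the log2 fold change was 0.32 (limma unadjusted p = 0.503), or 0.092 without DMSO replicate 2. HIST1H4H (H4C8) had the same lowest library, with 10.3, 6.74 and 14.1 in DMSO and 3.91, 17.9 and 24.0 in Tan I, and a log2 fold change of 0.27, or 0.024 without that library. The value for HIST1H4E was 0.47 (limma unadjusted p = 0.335), or 0.31 without it. The summed H4 level was 162, 140 and 176 in DMSO and 163, 249 and 291 in Tan I, with a ratio of 1.47 and of 1.39 without DMSO replicate 2.

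The 12 genes below the filter had means of 6.18 to 9.94 normalized counts and 1 to 17 reads per library. They were HIST1H1B, HIST1H2AH, HIST2H2AC, HIST1H2AI, HIST1H2AJ, HIST1H2BO, HIST1H2BL, HIST1H3F, HIST1H3I, HIST1H3G, HIST1H4B and HIST1H4D. Over all libraries, the 12 had a Tan I mean at or above the DMSO mean, with ratios from 1.001 to 2.69, the highest in HIST1H2AH. Without DMSO replicate 2, HIST1H1B and HIST1H2AJ had a lower mean in Tan I than in DMSO. With so few reads these genes were not tested.

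By position, 21 of the 27 tested genes lay on chromosome 6 and all 21 had positive log2 fold changes, with a median of 0.59 (20 of 21 and 0.19 without DMSO replicate 2). The 6 tested genes on chromosome 1 had a median of 0.07, and 4 of them were positive (2 of 6 and -0.48 without that library). The 4 pseudogenes had a median of -0.05, against 0.59 for the 23 coding genes tested, and without DMSO replicate 2 the medians were -0.49 and 0.19. The pseudogenes took 21.8% of the summed normalized counts, a share that can include reads of the noncoding RNAs they overlap. Summed RNA of the chromosome 6 genes was 1805, 1088 and 2187 in DMSO and 2368, 2599 and 2430 in Tan I, so these groups did not overlap. The ratio was 1.46, and 1.24 without DMSO replicate 2. For chromosome 1 it was 1.16, and 0.894 without that library. The 10 genes with an annotated transcript ending in a poly(A) signal had a median log2 fold change of 0.56, and the 17 other genes tested had 0.54, with 0.16 and 0.19 without DMSO replicate 2. Their summed ratios, over all 10 and all 29 listed genes, were 1.41 and 1.19, and 1.09 and 0.992 without that library. These splits were made after the values were seen, and the differences between them were not tested.

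There were 7 divergent H2A and H2B pairs that share a promoter region, with 233 to 251 bases between their starts, and in 3 of them both genes were tested. HIST1H2BC and HIST1H2AC had log2 fold changes of 1.14 and 0.91. HIST1H2BJ and HIST1H2AG had 0.77 and 0.50, and HIST1H2BG and HIST1H2AE had 0.66 and 0.71. All 6 values were positive. Leaving out DMSO replicate 2 brought the 3 pairs, in this order, to 0.63 and 0.66, to 0.16 and 0.20, and to 0.24 and 0.19. In their levels the partners of a pair could differ widely. HIST2H2BE, with a mean of 1055 normalized counts over the 6 libraries, faced HIST2H2AC with 9.89.

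None of the genes listed for making, processing or degrading histone RNA passed the test. Of the 10 genes analysed for the histone locus body and histone transcription, 0 passed the unadjusted test, 3 had a positive log2 fold change and their median was -0.03. NPAT, the activator of histone transcription, had 554, 389 and 535 normalized counts in DMSO and 644, 436 and 387 in Tan I, with a log2 fold change of -0.03 (SE 0.23). CASP8AP2, also known as FLASH and needed for histone pre-mRNA processing, had 1005, 667 and 765 in DMSO and 1068, 693 and 504 in Tan I, with a log2 fold change of -0.15 (SE 0.28). Both were lowest in DMSO replicate 2 among the DMSO libraries and in replicate 3 among the Tan I libraries.

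SLBP, the stem-loop binding protein, had the opposite order of libraries. Its normalized counts were 2725, 4776 and 2895 in DMSO and 2744, 3345 and 4906 in Tan I, and its log2 fold change was 0.09 (SE 0.28). Among the DMSO libraries SLBP was thus highest in replicate 2, where most histone genes were lowest. Its highest value of all was in Tan I replicate 3, where the median deviation of the histone genes was 0.29. In the list of cleavage factors for the 3′ end 0 of 9 genes passed (6 positive, median 0.10), and in that of histone mRNA decay 0 of 9 (6 positive, median 0.02). Of 15 histone chaperones, which carry histones to DNA, 0 passed (12 positive, median 0.06).

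Of the 11 variant histone genes analysed from outside the clusters, 0 passed the test, 10 were positive and the median log2 fold change was 0.14. Of 25 S phase genes, 20 were positive with a median of 0.07, and 2 passed the unadjusted limma test. RRM2, a subunit of ribonucleotide reductase, rose by 0.45 on the log2 scale, with 3619, 4281 and 3830 normalized counts in DMSO and 4552, 4844 and 6871 in Tan I. PRIM1, the small subunit of primase, fell by 0.32, with 740, 763 and 700 in DMSO and 660, 517 and 599 in Tan I. The summed level of the S phase genes was 84308, 109121 and 87760 in DMSO and 86665, 94364 and 117541 in Tan I. DMSO replicate 2 was therefore the highest DMSO library for S phase RNA and the lowest for histone RNA. Of the PRC2 genes 0 of 4 passed, and EZH2 itself had 3795, 3041 and 3729 in DMSO and 3920, 3690 and 3349 in Tan I, with a log2 fold change of 0.06 (SE 0.13).

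Of 15 other RNAs known to lack a poly(A) tail, 5 were analysed and 0 passed the test, with a median log2 fold change of 0.12. Their summed level was 2298, 2113 and 1671 in DMSO and 1834, 2342 and 2743 in Tan I, so that DMSO replicate 2 was not low for it. RN7SL1 and RN7SL2 supplied most of this sum, with 963 and 1086 in DMSO replicate 2, so it says little about the other RNAs of the list. SCARNA6, a small Cajal body RNA chosen after its values were seen, was low in DMSO replicate 2 and Tan I replicate 3, with 25.2, 2.89 and 22.7 in DMSO and 15.6, 21.1 and 4.001 in Tan I. The part of RNA selection in the spread between libraries was not tested.

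With the leading principal component added to limma as a covariate, the median log2 fold change of the 27 genes was 0.66 and all 27 were positive. In that fit 16 were called higher at the unadjusted threshold, against 4.25% of all genes. After adjustment 1 histone gene passed, HIST1H2AC, with a log2 fold change of 1.004 and an adjusted limma p of 0.0121, against a background of 1.15%. The component was computed from these same values, histone genes included, and limma treats it as known. The p-values of this fit therefore leave out its uncertainty. Unadjusted calls over all genes in either direction rose from 408 to 1496. With no filter 5 of the 39 were called higher (background 1.28%) and 7 did not overlap (3.94%), while at a mean of 50 or more 2 of 14 did not overlap (4.06%). The counts also moved with single libraries. Without DMSO replicate 3, 5 of 27 were called higher (0.705%) and 13 did not overlap (6.24%). Without Tan I replicate 2, 1 was called (0.456%), as without Tan I replicate 3 (0.782%), where 9 did not overlap (7.54%). Without Tan I replicate 1, 11 did not overlap (13.7%).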

How the data were processed

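RNA-seq of NB4 cells was analysed in 6 libraries, 3 with DMSO and 3 with Tan I, grouped by the sample labels. Alignment by the authors used STAR and GRCh38; they discarded reads that mapped to several places, counted reads per gene with featureCounts and compared groups with DESeq2; versions are not given in the sources used here. The deposited signal values are gene counts divided by 1 size factor per library. Deposited columns with the authors' mean and their own comparison (log2 fold change and standard error, a Wald score, and unadjusted and adjusted p-values) were not used. There were 0 other per-sample columns.

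Dividing each library by its smallest nonzero value gave whole reads for 100% of values (tolerance 0.0001), which set the depth. Genes with a mean of at least 10 normalized counts (16887) were tested with limma 3.58.1 in R 4.3.3 (lmFit, eBayes with trend) on log2(normalized count + 1), the model holding treatment alone, with Benjamini-Hochberg adjustment over all of them. Fold changes are on that scale, which understates those of low genes. Sums by type are of normalized counts and carry no test, and counts out of 18 settings include this fit. Alternatives were pseudocounts of 0.1 and 10, no filter, a mean of at least 50, quantile normalization, a common total, eBayes without trend, edgeR 4.0.16 and DESeq2 1.42.0 on recovered reads, a block for the replicate number, the first principal component as a covariate, and each library left out. An exact two-sided permutation test of 3 against 3 cannot go below p = 0.1. The fit was tested on simulated data.

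The histone genes and the gene lists were chosen with earlier results of these data known. Named were histone genes passing the unadjusted call, for each type the 2 with the highest level per kb and the tested ones with the highest and lowest log2 fold change, then SLBP, NPAT, CASP8AP2, EZH2 and list genes passing the unadjusted call. Other genes are named to account for every member or were chosen after their values were seen. Annotation and transcripts were from GENCODE release 44, promoters from RefSeq.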

Additional observations from a re-analysis of the deposited data

How the results depend on the processing

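The counts of histone genes called lower (0) and the median log2 fold change (positive) kept their side and direction under every alternative, with medians from 0.16 to 0.87. The count called higher (3) became 5 with no filter and 16 with the leading principal component as covariate, where 1 gene also passed after adjustment. With 1 library left out it ran from 1 to 5, being 1 without DMSO replicate 2, Tan I replicate 2 or Tan I replicate 3 and 5 without DMSO replicate 3. The count of genes whose groups did not overlap (4) was 7 with no filter and 2 at a mean of at least 50. With 1 library left out it ran from 4 to 13, the highest without DMSO replicate 3 (13), Tan I replicate 1 (11) and Tan I replicate 3 (9). The log2 ratio of summed H2B RNA (0.30) ran from -0.042, without DMSO replicate 2, to 0.55. The sums of the other 4 types and of all histone genes kept their direction when any 1 library was left out. For all histone genes, however, the ratio of 1.29 shrank to 1.04 without DMSO replicate 2.

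Among single genes, leaving out 1 library turned the direction of HIST2H2BC (-0.65 to 0.35), HIST2H2BA (-1.10 to 0.54), HIST2H2BD (-0.32 to 0.39), HIST2H2BF (-0.63 to 0.996), HIST1H2BM (-0.026 to 1.01), HIST1H4H (-0.18 to 0.99), HIST2H3DP1 (-0.16 to 0.33), NPAT (-0.24 to 0.12), CASP8AP2 (-0.44 to 0.10), SLBP (-0.15 to 0.34) and EZH2 (-0.046 to 0.12). With the principal component as a covariate the log2 fold change turned to 0.27 for HIST2H2BC, 0.28 for HIST2H2BA, 0.11 for NPAT, 0.022 for CASP8AP2 and -0.093 for SLBP. HIST2H2BA was 0.077 in edgeR and 0.058 in DESeq2, and HIST2H2BF -0.025 and -0.028. With a common total for each library HIST2H2BD was -0.053 and EZH2 -0.0027. For each of these the cause was not tested.

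With the replicate number as a block, 4 histone genes were called higher and the median stayed at 0.54. In that fit 348 of all 16887 genes were called in either direction. Genes called higher alone were not counted there, so the 4 have no matching background. Same-numbered libraries deviated together with r = 0.751, -0.088 and -0.451 for numbers 1 to 3 (across genes, which are not independent replicates), so they were not taken as pairs, and not every library correlated best with its own number. DMSO replicate 2 and Tan I replicate 3 correlated at 0.758. The standard errors of 0.16 to 0.88 over the 27 genes, and as few as 1 read per library in the 12 untested ones, limit what 3 libraries per group can show.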
